A study of Mus musculus with 30 samples.

Results

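Immediate early genes are transcribed within minutes of a stimulus without new protein synthesis. The group described here was set by name, with earlier results of these data known. It holds Fos, Fosb, Jun, Junb, Egr1, Egr2, Nr4a1, Dusp1, Ier2 and Btg2. All probe sets whose only gene symbol in the platform annotation was one of these names were taken, which gave 13 probe sets for 10 genes, out of 12488 probe sets and 8252 genes on the array. Egr1, Fos and Junb had 2 probe sets each, called probe set 1 (the brighter) and probe set 2. The brighter one stands for the gene unless stated. Of the 13 probe sets, 11 passed the filter on low intensity, and every gene had at least 1 among them. Probe set 2 of Egr1 (mean intensity 23.2) and of Fos (mean intensity 12.0) lay below the filter and are given from a fit without it.

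The hippocampi of 2 male pups were pooled for each of 30 Affymetrix MG-U74Av2 arrays. The pups came from C57BL/6 mice crossed with Nf1 heterozygotes, and wild-type and heterozygous pools were made at 6 ages, which are P10, P15 and P18, then P20, and finally P28 and P32 (P stands for postnatal day). Nf1 encodes neurofibromin, which switches Ras off. The sources used here name neither the mutant allele nor the litter of a pool. Wild-type groups held 3, 4, 2, 2, 2 and 2 pools in order of age, and heterozygous groups held 4, 4, 2, 2, 2 and 1, so heterozygotes at P32 had no replicate. Brains were frozen after dissection, and the labels name no stimulus or stimulated group.

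In neurons, calcium entry and growth factors act through Ras, the ERK kinases and CREB to switch these genes on, and their RNA decays quickly. Fos and Fosb proteins pair with Jun proteins as the AP-1 transcription factor, Egr1 and Egr2 are zinc finger transcription factors, and Nr4a1 is an orphan nuclear receptor. Dusp1 is a phosphatase that turns MAP kinases off, Btg2 is an antiproliferative cofactor, and Ier2 is a small nuclear protein. Hippocampal Egr1 and Fos are widely used as markers of recent neuronal activity.

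The bases in front of the annotated start are shown for Fos, Nr4a1, Dusp1 and Btg2, because they carry the cAMP response element, the site CREB binds, in different forms, and because the first 3 were called higher from P10 to P15 and Btg2 was not. The RefSeq promoter table (GRCm38.p6) held 8 of the 10 genes, without Egr1 and Ier2. The 250 bases upstream of each start were searched on both strands, for TATAAA on the gene strand alone. Sites farther upstream, and any site of Egr1 or Ier2, were therefore not seen. Capitals mark the full element TGACGTCA, its core TGACG on either strand, and TATAAA; a full element holds the core on both strands. The windows are chr12:85473640-85473889 on the plus strand for Fos, chr15:101266596-101266845 on the plus strand for Nr4a1 (a start inside the annotated gene), chr17:26508473-26508722 on the minus strand for Dusp1 and chr1:134079156-134079405 on the minus strand for Btg2.
Fos: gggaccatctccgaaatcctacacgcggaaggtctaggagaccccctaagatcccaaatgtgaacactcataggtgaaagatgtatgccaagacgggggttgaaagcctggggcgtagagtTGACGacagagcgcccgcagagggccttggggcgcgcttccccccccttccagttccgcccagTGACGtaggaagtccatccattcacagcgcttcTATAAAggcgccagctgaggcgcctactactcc
Nr4a1: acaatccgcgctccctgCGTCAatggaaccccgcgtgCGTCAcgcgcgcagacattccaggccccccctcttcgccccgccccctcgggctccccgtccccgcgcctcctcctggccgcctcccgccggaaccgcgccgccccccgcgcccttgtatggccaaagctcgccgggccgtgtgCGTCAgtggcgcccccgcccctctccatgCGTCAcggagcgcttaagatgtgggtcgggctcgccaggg
Dusp1: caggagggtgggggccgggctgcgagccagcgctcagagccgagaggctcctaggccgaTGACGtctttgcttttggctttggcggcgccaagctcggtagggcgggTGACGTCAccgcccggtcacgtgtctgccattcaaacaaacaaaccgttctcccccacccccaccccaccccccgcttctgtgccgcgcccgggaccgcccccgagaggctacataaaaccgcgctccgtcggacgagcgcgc
Btg2: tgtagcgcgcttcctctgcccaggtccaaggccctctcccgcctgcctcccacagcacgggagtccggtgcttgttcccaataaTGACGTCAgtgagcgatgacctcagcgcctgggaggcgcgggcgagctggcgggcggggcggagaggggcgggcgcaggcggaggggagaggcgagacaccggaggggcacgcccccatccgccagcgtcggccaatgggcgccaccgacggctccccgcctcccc

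The Fos window held cores at -129 to -125 and -66 to -62 and a TATAAA match at -33 to -28, counted from the annotated start. The Nr4a1 window held 4 cores, the nearest at -40 to -36, and the Dusp1 window held a full element at -143 to -136 and a further core at -191 to -187. The Btg2 window held a full element at -166 to -159. The core was found in 7 of the 8 genes (Btg2, Dusp1, Egr2, Fos, Fosb, Junb and Nr4a1) and in 17.8% of all 32851 windows of the same length. The members are counted by gene, with a match in any window, and the background by window; Egr2 has 5 overlapping or neighbouring windows, of which 3 hold the core and 4 the CArG box, and the other 7 genes have 1 each. The full element was found in Btg2 and Dusp1 and in 1.55% of all windows. The EGR site (GCGTGGGCG or GCGGGGGCG) was found in Fosb and Nr4a1 and in 3.06% of windows, the CArG box bound by serum response factor in Egr2 and in 1.47%, and TATAAA in Fos and in 7.59%. The AP-1 site TGANTCA was in 0 of the 8 genes and in 6.75% of windows. The core stood in members called higher from P10 to P15 (Dusp1, Fos, Fosb, Nr4a1) and in members not called (Btg2, Egr2, Junb). The full element likewise stood in Dusp1, which was called, and in Btg2, which was not. A link between sites and calls was not tested. Such matches describe letters and not binding.

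Between P10 and P15 the levels of Egr1, Fos and Nr4a1 about doubled, Fosb and Dusp1 rose less, and no member was called lower. The question this comparison answers is which of the genes changed over these days, taking both genotypes together. Of the 11 probe sets tested 5 were called higher (Benjamini-Hochberg adjusted p below 0.05 in limma, as for every call here) and 0 lower. Over all 7453 probe sets tested, 25.9% were called, 12.5% higher and 13.4% lower. Where pools of different groups are said below not to overlap, the share of all probe sets that separate likewise was not counted. The median log2 change over the 10 genes was 0.30, beside -0.02 over the 5694 genes tested.

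Fos, a core AP-1 subunit, had intensities of 73, 53 and 74 in the wild-type pools at P10 and 147, 126, 112 and 93 at P15. In heterozygotes the values were 65, 62, 53 and 70 at P10 and 100, 81, 180 and 188 at P15. All 8 pools at P15 lay above all 7 at P10, and the heterozygous P15 pools split into a lower and a higher pair. The lower pair had the sample title codes 1c and 1d and the higher pair 2c and 2d. In wild type at P15, pools 1a and 1b (147 and 126) lay above 2c and 2d (112 and 93). What the number in the code stands for is not stated, so pools of the same number may not be independent. The rise over both genotypes was 1.92-fold (log2 change 0.94, SE 0.16, adjusted p = 1.1e-04). Probe set 2 of Fos, dim in every pool, rose by 1.52 on the log2 scale (SE 0.31, adjusted p = 0.0013 in the fit without the filter), and 7 of 8 pools at P15 lay above all at P10.

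Fosb, a close relative of Fos and its alternative in AP-1, lay between 82.8 and 115.9 at P10 (median 91.3, n = 7) and between 115.2 and 156.0 at P15 (median 131.0, n = 8). In 7 of 8 pools the P15 value was above every P10 value. The rise was 1.37-fold (log2 change 0.45, SE 0.10, adjusted p = 0.0022). Taken by genotype, it was called in heterozygotes and not in wild type, as given below. With the title code as a replicate block the Fosb call was lost, as given in the closing section.

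Jun and Junb, the partners of Fos proteins, were not called over this interval. Jun was at 182.3 ± 31.7 (SD, n = 7) at P10 and 203.2 ± 40.9 (n = 8) at P15, a log2 difference of 0.15 (95% confidence interval -0.14 to 0.43, adjusted p = 0.47). Junb probe set 1 was at 115.7 ± 15.4 and 131.9 ± 20.2, a log2 difference of 0.18 (interval -0.06 to 0.42, adjusted p = 0.26). Junb probe set 2 gave a larger and less precise difference of 1.06 (interval 0.23 to 1.89, adjusted p = 0.054), with single P15 pools from 25.0 to 211.0, and it passed the threshold under 3 of 9 alternatives and when any 1 of 8 single pools was left out. The probe sets of Junb therefore gave the same sign and different sizes.

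Egr1, which is needed for late phases of synaptic plasticity, was at 211, 192 and 191 in wild type at P10 and at 397, 408, 342 and 267 at P15. In heterozygotes it was at 163, 187, 193 and 164 at P10 and at 351, 354, 339 and 652 at P15. The P10 and P15 pools did not overlap. The rise was 2.02-fold (log2 change 1.01, SE 0.12, adjusted p = 1.3e-06), and it was called under all 10 processing alternatives and without any 1 of the 30 pools. Probe set 2 of Egr1 gave the other sign, -0.53 (SE 0.25, adjusted p = 0.16), at intensities between 4.59 and 39.1 over all pools. Egr2, known from hindbrain and Schwann cells as well as from neurons, was at 42.7 ± 7.3 (SD, n = 7) at P10 and 52.5 ± 12.0 (n = 8) at P15 and was not called (log2 difference 0.26, interval -0.08 to 0.60, adjusted p = 0.26).

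Nr4a1, an orphan nuclear receptor induced by calcium, was at 90, 114 and 66 in wild type at P10 and at 200, 167, 146 and 119 at P15. In heterozygotes it was at 78, 99, 64 and 105 at P10 and at 130, 118, 184 and 241 at P15. All P15 pools lay above all P10 pools. The rise was 1.84-fold (log2 change 0.88, SE 0.15, adjusted p = 1.4e-04).

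Dusp1, the feedback phosphatase, lay between 172.0 and 198.9 at P10 and between 194.2 and 275.9 at P15, with 7 of 8 P15 pools above all P10 pools. The rise was 1.26-fold (log2 change 0.34, SE 0.10, adjusted p = 0.011). Btg2 was at 230.9 ± 28.7 (SD, n = 7) and 247.1 ± 17.8 (n = 8) and was not called (log2 difference 0.11, interval -0.06 to 0.28, adjusted p = 0.36). Ier2 was at 86.2 ± 10.2 and 78.0 ± 7.1 and was not called (log2 difference -0.14, interval -0.32 to 0.05, adjusted p = 0.28). These are pools of whole hippocampus, in which fewer cells of a type and less RNA per cell cannot be told apart.

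**Figure D1:**
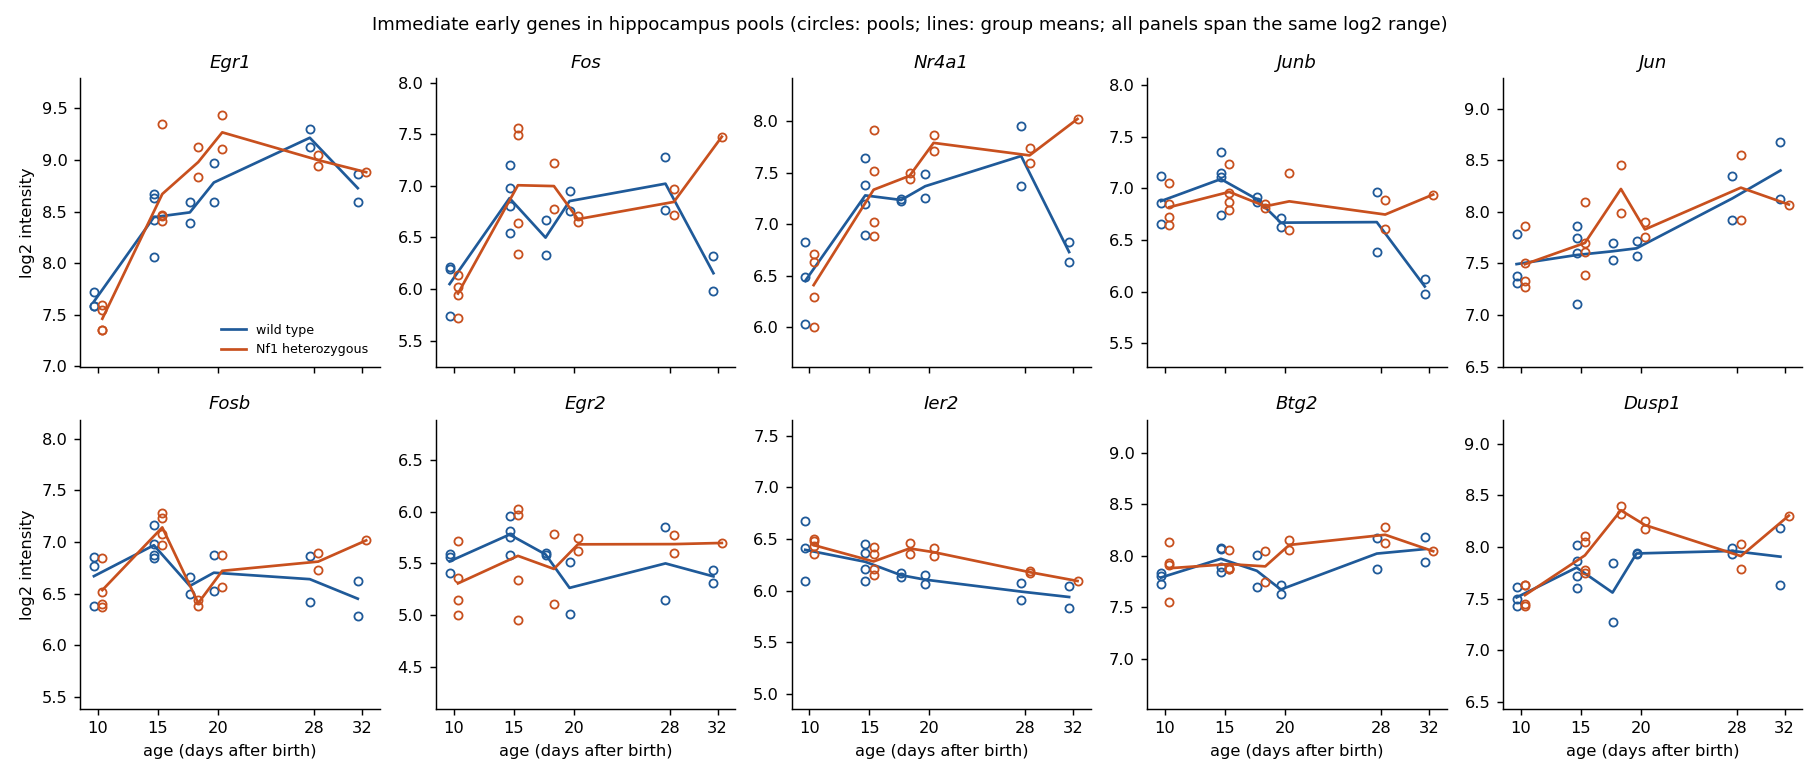
Log2 intensity of the brighter probe set of each gene (vertical axes, each spanning the same range) against age in days (horizontal axes); circles are pools of 2 pups, lines join group means, blue is wild type and orange Nf1 heterozygous. Egr1, Fos and Nr4a1 step up between P10 and P15, where none of their pools overlap, whereas Jun is higher at P28 and P32 and Ier2 lower. How many of all probe sets separate in this way was not counted.

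The early rise was seen in each genotype. In wild type 3 of 11 probe sets were called, all higher, beside 5.76% of all probe sets. These were Egr1 (log2 change 0.82, SE 0.18, adjusted p = 0.0072), Fos (0.83, SE 0.23, adjusted p = 0.035) and Nr4a1 (0.83, SE 0.22, adjusted p = 0.028). The Fos call was lost in the fit without the low-value filter (adjusted p = 0.056), and the Nr4a1 call in a fit of the compared groups alone (adjusted p = 0.056). Without WT P10 pool 2a the Fos change was 0.68 (adjusted p = 0.18), and the Fos call was also lost without WT P10 pools 1b or 2b or WT P15 pools 1a, 1b or 2c. Without WT P10 pool 2b the Nr4a1 change was 0.62 (adjusted p = 0.19), and the call was also lost without WT P10 pool 1b or WT P15 pools 1a or 1b. Leaving out WT P10 pool 1b or 2b or WT P15 pool 1a or 1b left Egr1 as the 1 member called. Codes such as 2a are those of the sample titles.

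In heterozygotes 5 of 11 were called, all higher, beside 21.2% of all probe sets. Egr1 rose by 1.21 on the log2 scale (SE 0.17), Fos by 1.05 (SE 0.22), Nr4a1 by 0.92 (SE 0.21), Fosb by 0.61 (SE 0.14) and Dusp1 by 0.39 (SE 0.13, adjusted p = 0.035). Egr1 was 652 in pool 2d at P15 against 339 to 354 in the other 3 heterozygous pools, and without that pool its rise was 0.98. The Dusp1 call was lost without Het P10 pools 1a or 2b or Het P15 pools 2c or 2d, and without pool 2d the Dusp1 change was 0.32 (adjusted p = 0.12). The difference between the genotypes in this rise was called for 0 of 11 members by limma, with 0 below an unadjusted p of 0.05, and for 0% of all probe sets. It was 0.39 for Egr1 (SE 0.24), 0.31 for Fosb (SE 0.21), 0.22 for Fos (SE 0.32) and 0.10 for Nr4a1 (SE 0.31), each heterozygous minus wild type.

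**Figure D2:**
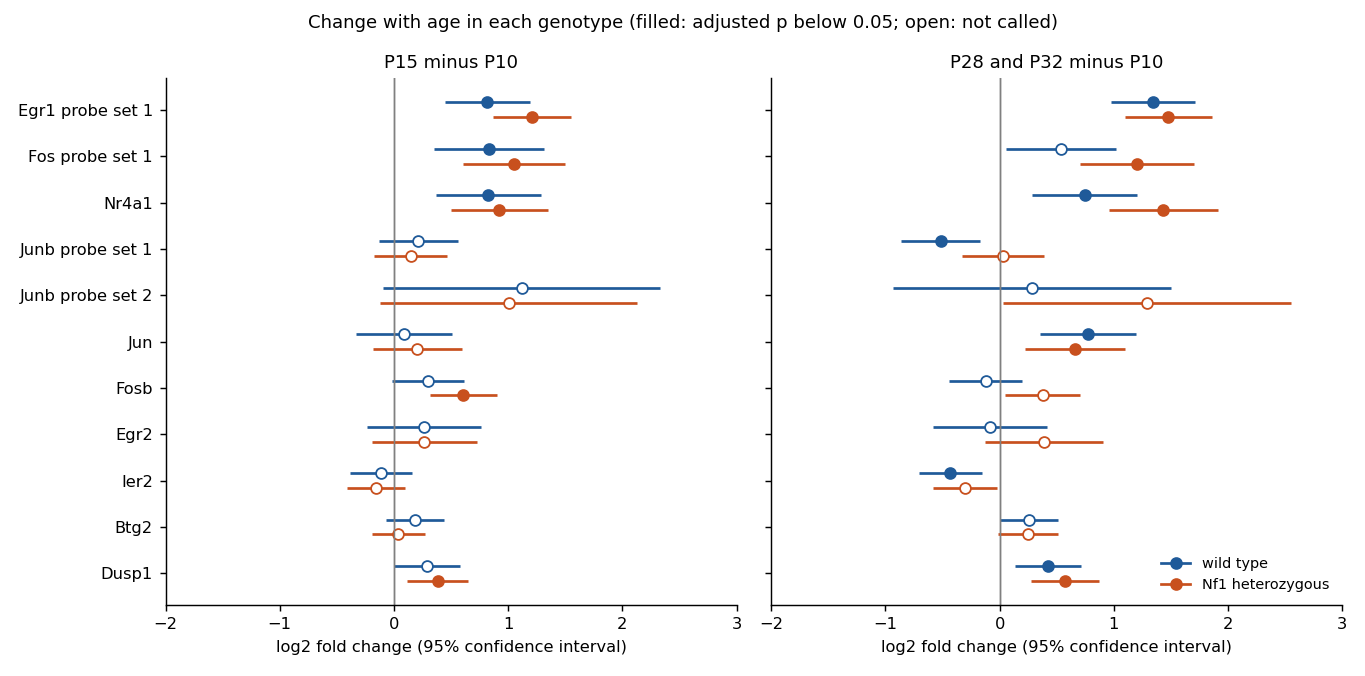
Log2 fold change from P10 to P15 (left) and from P10 to the mean of P28 and P32 (right), horizontal axes, for the 11 probe sets tested, in wild type (blue) and Nf1 heterozygotes (orange); points are estimates, bars 95% confidence intervals, and filled points were called. Egr1 and Nr4a1 are filled in both genotypes on both sides, while Fos is open in wild type on the right, where its interval overlaps that of the heterozygotes.

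After P15, in the main fit, Egr1 rose further, Jun rose, and Fosb, Junb probe set 1 and Ier2 fell. The share of members called to the late ages was near that over all probe sets, as given below. Between P15 and P18 Fosb was the only member called (1 of 11, beside 3.84% of all probe sets), and it fell by 0.56 on the log2 scale (SE 0.12, adjusted p = 0.020). Its intensity was 133.7 ± 15.1 (SD, n = 8) at P15 and 90.2 ± 7.7 (n = 4) at P18, with every P18 pool (83.4 to 100.9) below every P15 pool. The call was lost without WT P18 pool 1c (-0.52, adjusted p = 0.11), WT P18 pool 1d (adjusted p = 0.064) or Het P18 pool 1b (adjusted p = 0.10), and with array weights, as given in the closing section. From P18 to P20, P20 to P28 and P28 to P32 limma called 0 of 11 members, beside 0.0134%, 8.06% and 0.0134% of all probe sets. The numbers of members below an unadjusted p of 0.05 were 0, 1 and 0 in these intervals, the 1 being Jun from P20 to P28 (log2 change 0.44, adjusted p = 0.15).

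From P15 to the mean of P28 and P32, 5 of 11 were called, 2 higher and 3 lower, beside 43.4% of all probe sets, 20.8% higher and 22.6% lower. Jun rose by 0.57 (SE 0.14, adjusted p = 0.0024) and Egr1 by 0.40 (SE 0.13, adjusted p = 0.012). With the title code as a replicate block the change of Egr1 turned sign, and the Jun and Fosb calls were lost, as given in the closing section. In heterozygotes the P15 pools share no code with those at P28 and P32, so age and code cannot be told apart there. Junb probe set 1 fell by 0.43 (SE 0.12, adjusted p = 0.0050), Fosb by 0.33 (SE 0.11, adjusted p = 0.016) and Ier2 by 0.23 (SE 0.09, adjusted p = 0.045). Fos (-0.07, interval -0.41 to 0.27), Nr4a1 (0.21, interval -0.11 to 0.53) and Dusp1 (0.16, interval -0.04 to 0.36) were not called. The Ier2 call held under 2 of 9 alternatives and without 13 of 30 single pools. The Fosb call was lost without WT P28 pool 1a (-0.27, adjusted p = 0.051), which left 3 called. The Jun call was lost with the 3'/5' signal ratio of Gapdh, a measure of RNA integrity, as a covariate (0.45, adjusted p = 0.054).

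**Figure D3:**
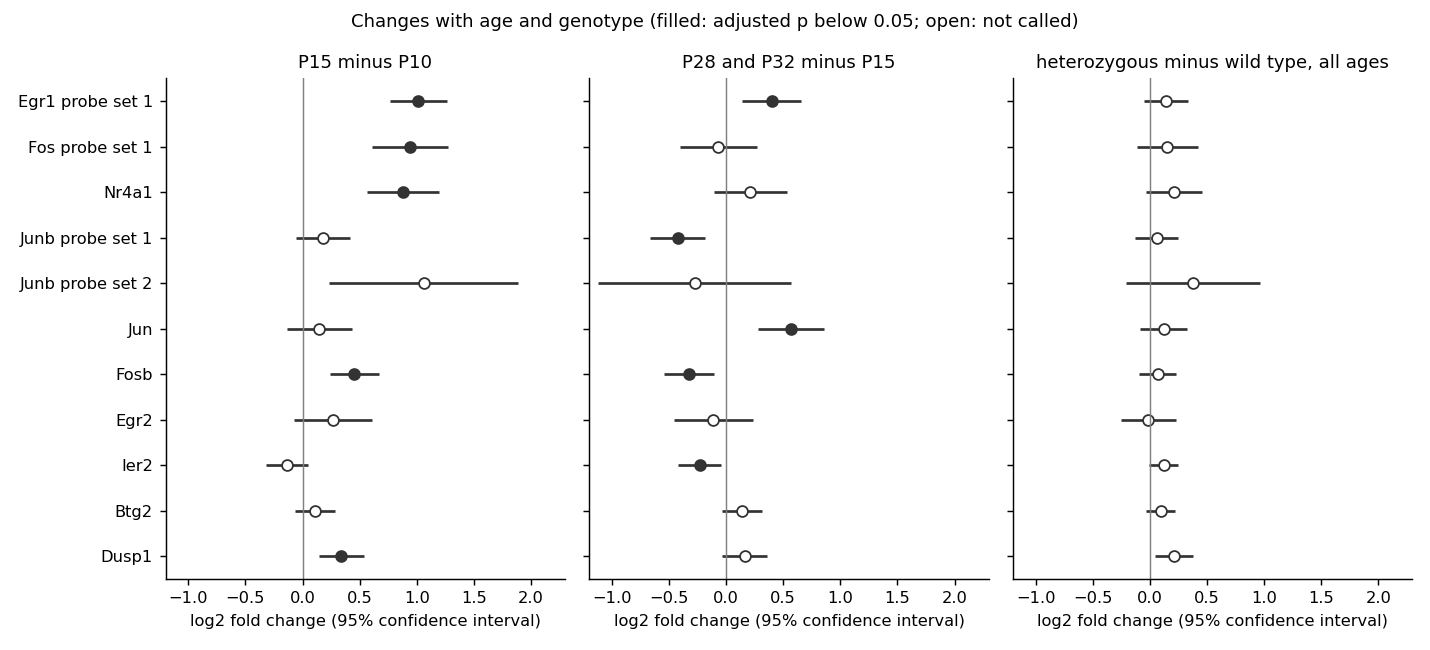
Log2 fold change (horizontal axes, bars 95% confidence intervals, filled points called) of the 11 probe sets tested, from P10 to P15 (left), from P15 to the mean of P28 and P32 (middle) and between genotypes over all ages (right). On the left 5 points are filled and all lie above 0, in the middle 2 are filled above 0 and 3 below, and on the right none is filled.

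Over the whole span, from P10 to the mean of P28 and P32, 7 of 11 probe sets were called, 6 higher and 1 lower, beside 53.7% of all probe sets, 24.7% higher and the rest, 2164 of 7453, lower. Egr1 rose 2.66-fold (log2 change 1.41, SE 0.13), Nr4a1 2.13-fold (1.09, SE 0.16), Fos 1.83-fold (0.87, SE 0.17), Jun 1.64-fold (0.72, SE 0.15) and Dusp1 1.41-fold (0.50, SE 0.10). Btg2 rose 1.19-fold (0.25, SE 0.09, adjusted p = 0.021), and Ier2 fell by 0.37 (SE 0.09, adjusted p = 0.0023). The Ier2 call was lost with quantile normalization (-0.23, adjusted p = 0.055). Junb was not called, and its probe sets differed in sign (-0.24, SE 0.12, for Junb probe set 1 and 0.79, SE 0.42, for Junb probe set 2). The Btg2 call was lost without WT P32 pool 1a (0.22, adjusted p = 0.053), WT P28 pool 1a (adjusted p = 0.057) or Het P10 pool 2b (0.19, adjusted p = 0.052), and with the number of the title code as a fixed term (adjusted p = 0.092).

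Jun was called after P15 and not before it: its 7 pools at P28 and P32 (241.9 to 408.1) all lay above its 7 pools at P10 (154.6 to 232.4), whereas the P15 pools (138.3 to 274.0) overlapped both. Mean Egr1 intensity was 185.9 ± 17.1 (SD, n = 7) at P10, 388.9 ± 114.7 (n = 8) at P15, 434.1 ± 96.2 (n = 4) at P18, 532.1 ± 126.4 (n = 4) at P20, 553.5 ± 58.7 (n = 4) at P28 and 440.9 ± 47.7 (n = 3) at P32. Among steps between neighbouring ages the one from P10 to P15 was called for Egr1. Its 3 pools at P32 (385.9 to 471.6) lay below its 4 pools at P28 (492.9 to 631.6), a step that was not called (log2 change -0.30, SE 0.19). Mean Fos intensity was 64.4 ± 8.9, 128.4 ± 40.1, 110.2 ± 28.7, 109.1 ± 10.3, 123.7 ± 22.9 and 107.2 ± 62.0 at the same ages, and the first step was the one called. Ier2 was lowest late, at 68.0 ± 5.9 (n = 4) at P28 and 63.7 ± 5.9 (n = 3) at P32. A test of any difference between ages called 8 of 11, beside 50.8% of all probe sets; Egr2, Btg2 and Junb probe set 2 were not called.

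In wild type 6 of 11 were called over the whole span, beside 38.2% of all probe sets. Egr1 rose by 1.34 (SE 0.18), Jun by 0.77 (SE 0.20), Nr4a1 by 0.74 (SE 0.22) and Dusp1 by 0.42 (SE 0.14), while Junb probe set 1 fell by 0.52 (SE 0.17) and Ier2 by 0.43 (SE 0.13). Junb probe set 2 gave the other sign and was not called (0.28, SE 0.59). With quantile normalization the calls of Junb probe set 1 (-0.43, adjusted p = 0.051) and Ier2 (-0.31, adjusted p = 0.079) were lost, that of Junb probe set 1 also with the title number as a fixed term (adjusted p = 0.060) and that of Ier2 in a fit of the compared groups alone (adjusted p = 0.079). Fos was not called in wild type (0.54, SE 0.23, adjusted p = 0.073), and it passed the threshold without WT P28 pool 1b or Het P15 pool 1d and under 3 of 10 alternatives. Without WT P10 pool 2b the calls of Nr4a1, Dusp1, Ier2 and Junb probe set 1 were all lost, which left 2. Single other wild-type pools ended 1 of these calls each: WT P28 pool 1a that of Nr4a1, WT P10 pool 1b that of Dusp1, and WT P28 pool 1b and WT P32 pool 1b that of Junb probe set 1. WT P32 pool 1a ended those of Dusp1 and Ier2.

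In heterozygotes 5 of 11 were called over the whole span, all higher, beside 36.5% of all probe sets. Egr1 rose by 1.48 (SE 0.19), Nr4a1 by 1.43 (SE 0.23), Fos by 1.20 (SE 0.24), Jun by 0.66 (SE 0.21) and Dusp1 by 0.57 (SE 0.15). The Jun call was lost without Het P28 pool 1a (0.50, adjusted p = 0.092), and the Dusp1 call without the single P32 pool (0.38, adjusted p = 0.069), when P28 alone stood for the late ages. The difference between genotypes over the span was called for 0 of 11 members by limma and for 0% of all probe sets. Below an unadjusted p of 0.05 were 3 members, Fosb (0.50, heterozygous minus wild type, SE 0.22), Junb probe set 1 (0.54, SE 0.24) and Nr4a1 (0.69, SE 0.32) (adjusted p = 0.70 for each).

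Genotype itself, averaged over all ages, moved no member past the threshold. Limma called 0 of 11, beside 0% of all probe sets, and 1 member was below an unadjusted p of 0.05. That member was Dusp1, at 0.21 heterozygous minus wild type (interval 0.05 to 0.38, adjusted p = 0.43). The intervals were -0.05 to 0.33 for Egr1, -0.12 to 0.42 for Fos, -0.04 to 0.46 for Nr4a1 and -0.25 to 0.23 for Egr2. Limma called 0 of 11 members at P10 (0 below an unadjusted p of 0.05, beside 0.0403% of all probe sets called), at P15 (0 and 0%), at P20 (2 and 2.27%), at P28 (0 and 0.0134%) and at P32 (4 and 0.0537%). The interaction of genotype and age was called for 0 of 11 members, with 2 below an unadjusted p of 0.05 (Dusp1 and Fos), beside 6.49% of all probe sets.

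At P18, 1 of 11 members was called between genotypes, Dusp1, beside 22.8% of all probe sets. The heterozygous pools at P18 had the title codes 1a and 1b and the wild-type pools 1c and 1d. At P20 the codes were 1a and 1b in heterozygotes and 2a and 2b in wild type. Genotype and title code therefore cannot be told apart at these ages. Dusp1 intensities at P18 were 319 and 337 in the heterozygous pools and 155 and 230 in the wild-type pools. Dusp1 was 1.74-fold higher in heterozygotes (log2 difference 0.80, SE 0.18, adjusted p = 0.0046). The call was lost without WT P18 pool 1c (0.51, adjusted p = 0.10) or Het P18 pool 1b (0.76, adjusted p = 0.061). Het P18 pool 1b had the highest 3'/5' ratio of Gapdh of all pools (log2 ratio 0.48, against -0.33 to 0.17 in the others), and with that ratio as a covariate the Dusp1 difference was 0.73 (adjusted p = 0.13). Egr1 probe set 2, below the filter, also differed at P18 in the fit without it (1.78, SE 0.47, adjusted p = 0.017), at 25.6 and 31.4 in heterozygotes and 4.59 and 14.9 in wild type. Egr1 probe set 1 did not pass the threshold there (0.49, SE 0.23, adjusted p = 0.13), at 557 and 457 against 387 and 335. It passed without Het P15 pool 2d, and Jun passed without Het P18 pool 1a, which gave 2 members in each case.

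At P32 the single heterozygous pool was above both wild-type pools for Fos (178 against 63 and 80), Nr4a1 (260 against 99 and 114) and Junb probe set 1 (122.9 against 69.7 and 63.0). The differences were 1.32 for Fos (SE 0.38), 1.29 for Nr4a1 (SE 0.36) and 0.89 for Junb probe set 1 (SE 0.27), none of them called (adjusted p = 0.35, 0.35 and 0.39). Egr1 in the same pools was at 472 against 386 and 465. Of the other probe sets that passed the filter, Fosb, Egr2, Dusp1, Ier2 and Junb probe set 2 were also highest in the heterozygous pool. Btg2 lay between the wild-type pools (264 against 291 and 246), and Jun lay below both (269 against 408 and 280). The share of all probe sets ordered in these ways was not counted. The 2 wild-type pools at P32 were also below both wild-type pools at P28 for Fos (155 and 109) and Nr4a1 (248 and 165), a difference that was not tested within genotype.

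Pools of 1 age and genotype varied in these genes, and deviations of Fos from its group mean were set against those of the other 9 genes over the 29 pools that had a partner. The largest correlation was with Nr4a1 (Pearson r = 0.64, Spearman rho = 0.59, permutation p = 0.022 and 0.022, two-sided), and 21 of 29 pools deviated to the same side. After adjustment over the 9 pairs 0 were called (adjusted p = 0.20 for Nr4a1). Without Het P15 pools 1d and 2d, the 2 farthest from the median of the Fos deviations, r with Nr4a1 was 0.48. With Junb r was 0.45 (rho 0.45, permutation p = 0.045, adjusted 0.20; 0.51 without those 2 pools), and with Egr1 it was 0.42 (rho 0.27, permutation p = 0.21, adjusted 0.37; 0.15 without those 2). With Fosb r was -0.12 (rho -0.13, permutation p = 0.57, adjusted 0.66). The deviations of the pools of 1 group sum to 0 and so are not fully independent.

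**Figure D4:**
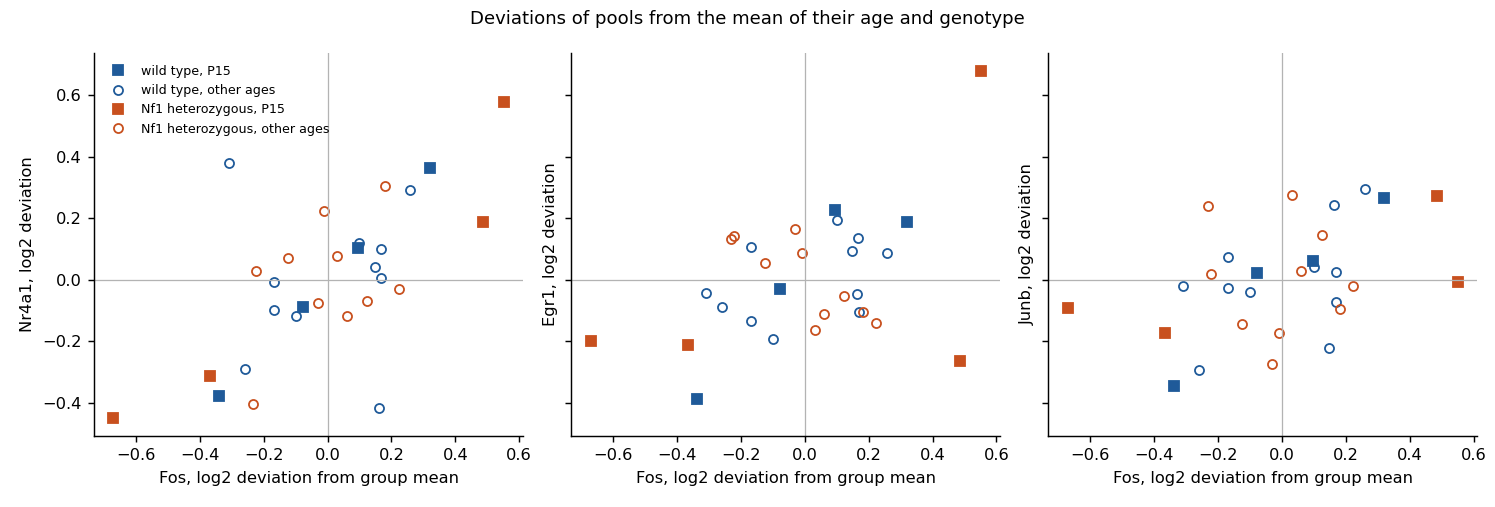
Deviation of each pool from the mean of its age and genotype (log2 units), Fos on the horizontal axes against Nr4a1, Egr1 and Junb on the vertical axes; squares are P15 pools, circles other ages, blue wild type and orange heterozygous. The widest Fos deviations belong to the 4 heterozygous P15 pools, and 1 of them, pool 2d, stands alone at the top of the Egr1 panel.

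The genes whose levels followed Egr1 most closely over the 30 pools, among 5684 non-member genes, were Gsn (r = 0.92), Mal (0.92), Aldh1a1 (0.92), Mobp (0.92) and Mog (0.91). For Fos they were Abr (0.77), Syt2 (0.76), Scn1a (0.76), Errfi1 (0.76) and Rasd1 (0.75). Spearman rho was lower, 0.77 to 0.81 for the genes named with Egr1 and 0.69 to 0.75 for those named with Fos. Mobp and Mog are among the oligodendrocyte markers described below. The pools differ in age, which all of these values share. Among the members themselves r over the 30 pools was 0.85 between Egr1 and Nr4a1, 0.84 between Fos and Nr4a1, 0.73 between Egr1 and Dusp1, 0.71 between Egr1 and Fos and 0.07 between Egr1 and Fosb.

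Other activity-regulated early genes were mixed between P10 and P15. Of 49 listed, 37 were on the array, 32 passed the filter, 10 rose and 2 fell, with a median of 0.18 on the log2 scale. Over all 5694 genes, 13.0% rose and 13.4% fell. The largest rises were those of Ptgs2 (1.30, SE 0.26), the inducible cyclooxygenase, Bhlhe40 (1.13, SE 0.12), a circadian repressor, and Ccn2 (0.78, SE 0.20), a secreted matrix protein. Homer1, a synaptic scaffold with an activity-induced short form, and Nr4a2, a relative of Nr4a1, were not called in wild type (Homer1 -0.45, Nr4a2 -0.11) or in heterozygotes (Homer1 0.04, Nr4a2 -0.32). Bhlhe40 was called in wild type (1.06) and in heterozygotes (1.19).

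Of 22 later effectors of activity, 16 passed, 3 rose and 1 fell, beside 13% of all 5694 genes higher and 13.4% lower. Penk, the enkephalin precursor, rose by 0.79 (SE 0.24), Gadd45a by 0.50 (SE 0.11) and Nptx1, a synaptic pentraxin, by 0.47 (SE 0.11), while the vesicle protein Syt4 fell by 0.69 (SE 0.12). Of 30 kinases and factors that induce early genes, 16 passed, 3 rose and 1 fell. The share called in each of these lists was near that over all genes. Camk2a, the calcium/calmodulin kinase subunit of excitatory synapses, rose by 1.97 (SE 0.39), Map2k1, an ERK kinase, by 0.82 (SE 0.09) and Ppp3r1, a calcineurin subunit, by 0.64 (SE 0.08), and Map2k2 fell by 0.28 (SE 0.09).

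Heat shock and handling-related genes moved in the same interval: of 16 listed, 13 passed, 5 rose and 0 fell, beside 13% of all genes higher and 13.4% lower. The 5 were the metallothioneins Mt1 (1.28, SE 0.11) and Mt2 (0.82, SE 0.07), the heat shock proteins Hspa1b (1.02, SE 0.11) and Hspa5 (0.30, SE 0.10), and the glucocorticoid target Fkbp5 (0.53, SE 0.08). The mean log2 level of the 13 genes lay between 9.16 and 9.31 in the P10 pools and between 9.30 and 9.88 in the P15 pools. Its part in the rise of Egr1, Fos and Nr4a1 was not tested.

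Markers of cell types moved too, in an interval in which 13% of all genes were called higher and 13.4% lower. Of 4 oligodendrocyte markers that passed all rose, with a median of 3.82 and a mean log2 level of 5.16 to 6.71 in P10 pools and 8.57 to 10.4 in P15 pools. Neuronal markers were split, 4 of 10 higher and 2 lower (mean log2 level 8.19 to 8.58 at P10 and 8.52 to 8.83 at P15). Of 7 microglial markers 6 rose (7.33 to 7.69, then 7.79 to 8.12), of 6 astrocyte markers 3 rose and 1 fell (8.16 to 8.45, then 8.34 to 8.67), and of 8 endothelial markers 4 fell (6.89 to 7.21, then 6.47 to 6.83). The 3 choroid plexus markers rose (4.48 to 8.48, then 7.58 to 8.59), of 3 blood markers 0 were called (8.02 to 8.94, then 8.10 to 8.66), and of 4 neutrophil markers 0 passed the filter. The part of cell composition in the members' rise was not tested.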

How the data were processed

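Per the labels, each of the 30 samples is 1 array of total RNA from the pooled hippocampi of 2 pups. The deposited table holds linear intensities, which the authors had scaled so that every array had the same trimmed mean (149.97, leaving out 2% at each end). No source used here names their software. Log2 values were computed from these after a floor of 1, with no further normalization. The 66 control probe sets and the lowest 40% by mean log2 (4969) were left out, and 7453 were tested with limma 3.58.1 in R 4.3.3: linear models over all 30 arrays with 1 mean per age and genotype (age and genotype as separate terms for the overall genotype effect), an intensity trend, two-sided p-values and Benjamini-Hochberg adjustment. Gene names came from the platform annotation. Where several probe sets named a listed gene, the brightest was used. The members, lists and tests were chosen with earlier results of these data known. The named genes were all members, the 3 genes of each list with the largest change from P10 to P15 (every called gene where 6 or fewer), and the 5 genes most correlated with Egr1 and with Fos; Homer1, Nr4a2 and the genes named under other observations were added after their values were seen. Correlations used 100000 permutations of pools within groups. The 10 alternatives were an offset of 32, other filters, quantile normalization, array weights, blocks, Gapdh as a covariate and fits of the compared groups alone, besides leaving out each pool. The computations were tested on simulated data. The labels do not say whether pools share litters, so the spread behind each p-value is that of these pools and may be partly technical. Replicates correlated at 0.94 or more over probe sets, and no arrays were identical. The number of arrays limits the precision.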

Additional observations from a re-analysis of the deposited data

Results flagged for a closer look

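Of the member values, 2 stood far from the rest of their group. In the 4 heterozygous P15 pools, Egr1 probe set 1 was at 652.3 in pool 2d and between 339 and 354 in the other 3. In the same group Btg2 was at 265.7 in pool 2d and between 233.9 and 236.2 in the other 3. Of 39 groups of member values examined in this way 2 stood out, and chance alone gives about 1 in 20. Both belong to the same pool.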

How the results depend on the processing

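The counts of members called stayed within 1.5 times their value in 205 cases of a comparison under an alternative processing, were higher in 3 and lower in 11. From P15 to P18 the count was 0 in place of 1 with array weights, with only the compared groups and with a replicate block. From P15 to P28 and P32 it was 3 in place of 5 with Gapdh as a covariate. Between genotypes at P18 it was 2 without the filter and 0 with array weights, with Gapdh as a covariate, with only the compared groups and with the replicate block. With only the compared groups it was 1 at P20 (Junb probe set 2) and 3 at P32 (Fos, Nr4a1 and Junb probe set 2), fits with few residual degrees of freedom. Leaving out 1 pool gave 1 to 3 for P10 to P15 in wild type, 0 to 1 for P15 to P18, 3 to 5 for P15 to P28 and P32, 2 to 7 for the whole span in wild type, 0 to 2 for genotype at P18 and 0 to 1 called correlations with Fos.

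Some pools of different genotypes share title codes. At P10, P15 and P28 same-coded pools did not deviate together from their group means (correlations -0.18 to 0.13). Both values at P28 are equal, because the deviations of a pair of pools mirror each other. At P18 and P20 no code was shared, and P32 had a single heterozygous pool. Because group means were removed, an effect of the code or its number on the groups cannot be judged from these correlations. With the code as a replicate block, 1 member was called from P15 to P28 and P32 in place of 5, 3 in place of 6 over the whole span in wild type, and 5 in place of 8 for any difference between ages. Egr1 probe set 1 turned to -0.020 from P15 to P28 and P32 (adjusted p = 0.96), Jun was 0.12 (adjusted p = 0.76) and Fosb -0.17 (adjusted p = 0.62) there, and Fosb from P10 to P15 was 0.18 (adjusted p = 0.71). The block also ended the calls of Ier2 over the whole span (-0.27, adjusted p = 0.11) and of Nr4a1 from P10 to P15 in wild type (adjusted p = 0.072). In heterozygotes no code was shared between P10 and P15, or between P15 and the later ages P28 and P32. In wild type the P15 pools shared code 1b with P10, and codes 1a and 1b with P28 and P32. Age and code therefore cannot be told apart in heterozygotes in these comparisons. The blocked changes rest partly on code effects estimated from other pools. The cause of the lost calls and the turned sign was not tested. Probe set 2 of Egr1 and of Fos lay below the filter, which limits their precision.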

Other observations

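From P15 to P28 and P32, 6 of the 32 other early genes rose and 7 fell, and 3 of the 16 later effectors rose and 6 fell, beside 22.4% of all genes higher and 22.3% lower, and the shares of the early genes were near these. Per1, a clock gene that rose from P10 to P15, fell by 0.54, and Gadd45g fell by 0.59. Among the effectors, the interneuron peptides Cort (log2 change -1.59), Sst (-0.75), Npy (-0.44) and Tac1 (-0.46) were called lower, and Bdnf (0.39) was called higher. These genes were named after their values were seen.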
